A study of Mus musculus with 6 samples.

Results

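Interleukins are secreted signals between cells of the immune system and their neighbours, and the genes described here are the interleukins, their receptor chains and their natural inhibitors in rat ovarian tissue. The members were all rows of the deposited gene table whose name begins with Il and a digit. There were 70 such rows among 22487 genes, and all 70 had a count in at least 1 library. By role they were 27 ligands, 35 receptor chains, 6 inhibitors or decoy receptors and 2 other genes. RNA was sequenced from ovaries of adult females of genotype WT in 6 libraries, 3 with exposure to cowshed PM2.5 (fine airborne particles) and 3 with no treatment. Titles of both groups add 30 days, with no word on whether this is an age or a duration, and strain, dose and route of exposure are not stated. Gene identifiers and titles are those of the rat, although the organism field says mouse, and rat is used here. Nothing in the labels tells separate animals from repeat samples, so p-values measure the spread between these libraries, which may be technical.

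An interleukin binds a receptor made of a private chain and, in most families, a chain shared with other interleukins. Receptors of the IL-1 and IL-17 families signal through adaptor proteins to NF-kB, while most others signal through JAK kinases and STAT transcription factors, which SOCS proteins then restrain. Secreted antagonists and decoy receptors hold several of these ligands in check. In the ovary, interleukins come from resident leukocytes as well as from granulosa, theca, stromal and epithelial cells, and they are known from ovulation and from the regression of the corpus luteum.

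Library totals ranged from 49554241 to 60749578 counts in PM2.5 and from 47662338 to 51530427 in controls, and the 70 members took between 0.0697 and 0.137% of a library. Markers of granulosa cells (7 of 7 in the table) and of theca and luteal cells (6 of 6) had counts in every library. Their sums varied widely within each group, and the groups overlapped. In CPM (defined below) the granulosa list summed to 2570 to 8510 in PM2.5 and 1390 to 6020 in controls. The theca and luteal list summed to 6930 to 20400 CPM in PM2.5 and 10000 to 19300 CPM in controls. Levels between genes are compared here as FPKM, the authors' value scaled by gene length and library size. Of the 70 members, 36 reached the minimum for the test, a 6-library mean of 0.5 FPKM, and 11 had at least 10 FPKM. The 36 were 11 ligands, 21 receptor chains, 3 inhibitors and a copy named as a pseudogene. Il7r at 0.543 and Il20ra at 0.523 FPKM lay just inside the minimum, and Il1r2 at 0.406 and Il22ra1 at 0.383 FPKM just outside. Of the 3 genes taken as marks of the family, Il18 had a mean of 19.9 FPKM over all 6 libraries and Il1b 1.41 FPKM, while Il6 lay under the minimum with 18, 8 and 8 counts in PM2.5 libraries 1 to 3 and 4, 42 and 0 counts in controls 1 to 3.

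By the mean over all 6 libraries the first receptor chain was Il3ra, the private chain for IL-3, with 46.7 ± 2.92 FPKM in PM2.5 and 46.9 ± 8.50 FPKM in controls (mean ± SD, n = 3 in each group, as for all such pairs below). Next came Il4r, the chain that binds IL-4, with a mean of 43.5 FPKM over all 6 libraries, Il6st, the shared gp130 chain of the IL-6 family, with 24.0 FPKM, and Il11ra1, the private chain for IL-11, with 21.7 FPKM. Il4r ranged from 23.7 to 108 FPKM and Il6st from 9.42 to 33.7 FPKM between libraries, so these neighbours in the order overlapped in level. Il4r averaged 26.8 ± 1.79 FPKM in PM2.5 and 60.3 ± 43.5 FPKM in controls. Its control mean was above that of Il3ra through control 2, where Il4r had 108 FPKM and Il3ra 37.5 FPKM. In controls 1 and 3 Il4r had 23.7 and 48.8 FPKM and lay below Il3ra, with 49.2 and 54.0 FPKM. Among ligands Il18 stood first and Il15, which sustains NK and memory T cells, followed at 8.70 FPKM. The other 9 tested ligands had means of 3.34 FPKM or less. The inhibitors Il1rn, Il18bp and Il13ra2 had 16.8, 16.3 and 11.2 FPKM, and their ranges overlapped. The receptor chains that pair with the abundant ligand were scarce, since Il18r1 and Il18rap had 0.271 and 0.248 FPKM.

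**Figure D1:**
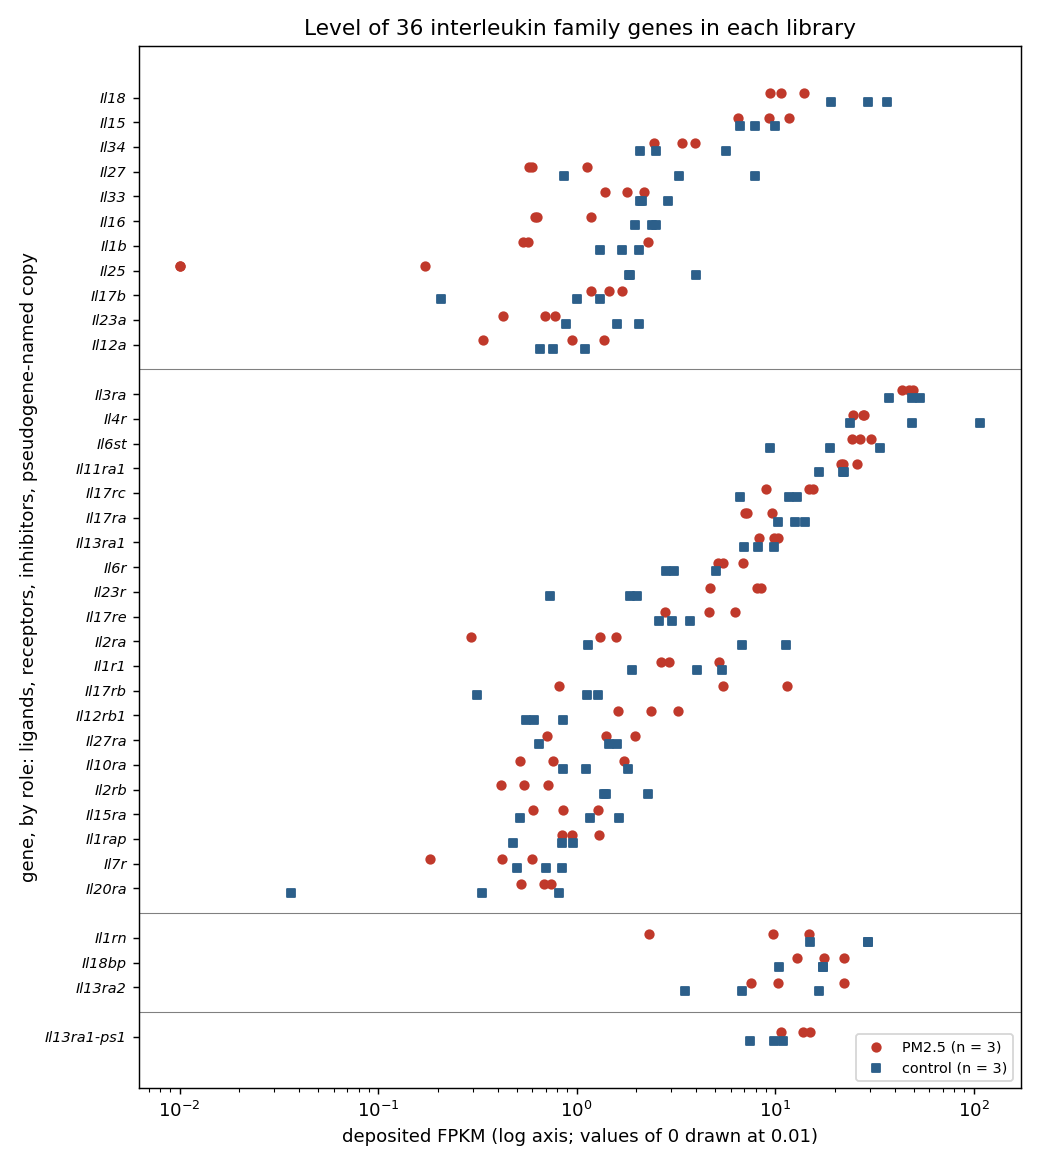
Deposited FPKM of the 36 members with a mean of at least 0.5 FPKM, 1 point per library, on a log axis, with PM2.5 (circles) above control (squares) in each row and genes grouped by role. Il3ra, Il4r, Il6st, Il11ra1 and Il18 lie highest, and Il25 is at 0 FPKM in 2 PM2.5 libraries, drawn at 0.01.

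In the comparison of PM2.5 with control, no member passed edgeR's quasi-likelihood test over all genes. Of the 36 tested, 0 had an adjusted p below 0.05, where 142 of 15303 tested genes, or 0.928%, did (0.19% higher and 0.738% lower). Without adjustment 14 members had p below 0.05 in edgeR's test, which is 38.9% of the members beside 20.9% of all tested genes. Of these 14, 9 were lower in PM2.5 (11.7% of all genes) and 5 were higher (9.17%). DESeq2 called 9 members at an adjusted p below 0.05, 25% of the members beside 11.5% of all genes. By that tool Il18, Il16, Il25, Il27, Il2ra and Il2rb were lower, where 6.77% of all genes were, and Il23r, Il12rb1 and Il17rb were higher, where 4.78% were. The groups did not overlap in 11 of the 36 members, 30.6% beside 27.2% of all tested genes. They lay lower in 7 (15.2% of all genes) and higher in 4 (12.1%). The median log2 fold change was 0.02 over the members and 0.00 over all tested genes.

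**Figure D2:**
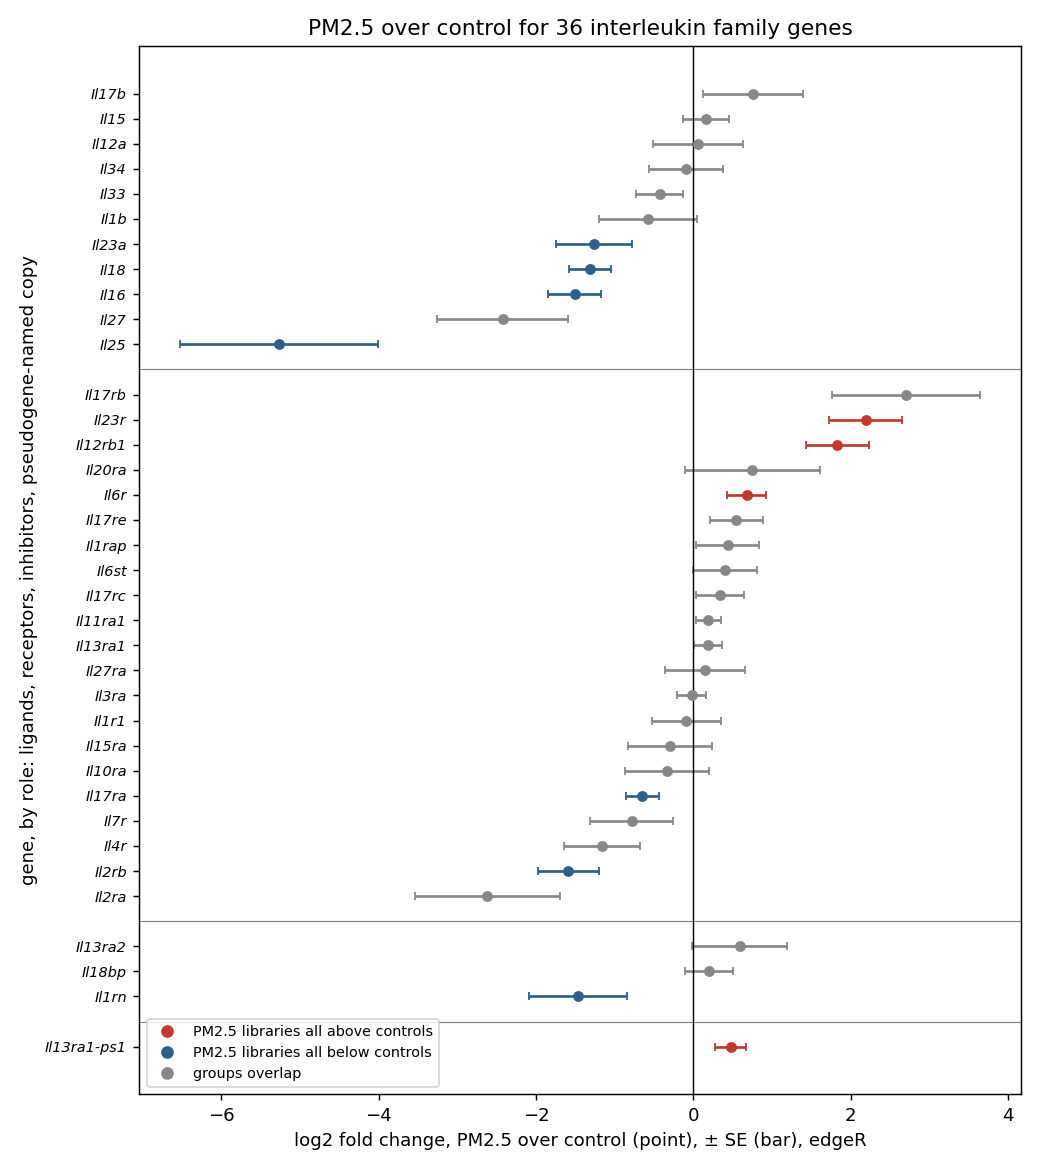
Log2 fold change of PM2.5 over control (point) with its SE (bar) from edgeR for the 36 tested members, grouped by role, with colour showing whether the PM2.5 libraries all lie above, all lie below or overlap the controls. Of 11 ligands, 8 lie left of 0 and the 4 coloured ones are all lower, while 12 of 21 receptor chains lie right of 0.

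Of the 11 tested ligands, 4 were lower throughout PM2.5, with no overlap, namely Il18, Il16, Il25 and Il23a (15.2% of all tested genes were), and 0 were higher throughout (12.1% of all tested genes were). Il18, an IL-1 family cytokine that caspase-1 activates and that induces interferon gamma, had 12.2, 13.8 and 17.9 CPM (counts scaled to library size with TMM factors) in PM2.5 libraries 1 to 3 and 37.9, 45.4 and 25.7 CPM in controls 1 to 3. The groups did not overlap, and control 3 lay nearest to the PM2.5 libraries. Its log2 fold change was -1.31 ± 0.27 (SE), and the adjusted p was 0.0743 by edgeR's quasi-likelihood test and 0.000688 by DESeq2. With any single library left out the log2 fold change lay between -1.50 and -1.12, and edgeR's adjusted p was at least 0.104. Il18 lies on chromosome 8 from 50906960 to 50932887 on the plus strand, by the authors' coordinates, for which no build is stated. It overlaps Bco2, a carotenoid-cleaving enzyme on the opposite strand, over 6401 bases. Bco2 had 42.3, 55.5 and 76.5 CPM in PM2.5 and 139, 129 and 46.2 CPM in controls, so its groups overlapped. The kit marked strand, but the strand setting of the counting is not given, and the part of Bco2 reads in the Il18 values was not tested.

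Il16, a chemoattractant for CD4-bearing cells that is made as a long precursor, had 4.08, 3.97 and 7.65 CPM in PM2.5 libraries 1 to 3 and 12.7, 15.0 and 16.9 CPM in controls 1 to 3. The lowest control had more than the highest PM2.5 library. Its log2 fold change was -1.51 ± 0.34, with adjusted p-values of 0.0933 by edgeR's quasi-likelihood test and 0.00142 by DESeq2. Il25, the IL-17 family cytokine that starts type 2 responses, had the largest fitted fold change of the 36 tested members. It had 0, 9 and 0 counts in PM2.5 libraries 1 to 3 and 72, 74 and 167 counts in controls 1 to 3. In CPM that is 0.0494 ± 0.0856 in PM2.5 and 2.11 ± 1.10 in controls. The fitted log2 fold change of -5.27 ± 1.26 rests on 9 counts in a single PM2.5 library and depends on the prior count of the fit. Without PM2.5 library 2, which holds those 9 counts, it was -9.73. For Il25 the adjusted p was 0.104 by edgeR's quasi-likelihood test, 0.00219 in DESeq2 and 0.0440 in limma on log2(FPKM + 1), which called no other member.

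The IL-12 family ligands were low. Il23a, the private subunit of IL-23, had 0.744, 1.20 and 1.35 CPM in PM2.5 and 3.56, 1.49 and 2.89 CPM in controls, with groups that did not overlap. Its log2 fold change was -1.26 ± 0.48 and edgeR's quasi-likelihood adjusted p 0.205. Il27, a subunit of the heterodimer IL-27, had 0.458, 0.478 and 0.886 CPM in PM2.5 and 2.59, 0.665 and 6.54 CPM in controls. Control 2 lay within the PM2.5 range, and the log2 fold change was -2.42 ± 0.83 (edgeR's quasi-likelihood adjusted p = 0.174, DESeq2 adjusted p = 0.0482). Without control 3 the Il27 log2 fold change was -1.42. Il12a, which IL-12 and IL-35 share, had a log2 fold change of 0.06 ± 0.57. Il12b, the subunit that IL-12 and IL-23 share, was under the minimum. It had 0, 0 and 19 counts in PM2.5 libraries 1 to 3 and 0, 14 and 0 counts in controls 1 to 3.

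Il1b, the inflammatory cytokine that the inflammasome activates, had 4.77, 1.14 and 1.19 CPM in PM2.5 libraries 1 to 3 and 3.53, 4.17 and 2.87 CPM in controls 1 to 3. PM2.5 library 1 was the highest of all 6 and the other PM2.5 libraries the lowest. The log2 fold change was -0.58 ± 0.63, and -1.60 without PM2.5 library 1. Il33, an alarmin of barrier and stromal cells, had a log2 fold change of -0.42 ± 0.30. Il15 had 0.16 ± 0.29, Il34, a ligand of the CSF-1 receptor, -0.09 ± 0.47 and Il17b, a further IL-17 family ligand, 0.76 ± 0.64, and in each of these 4 ligands the groups overlapped.

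Summed over the 27 ligands, the level was 29.8, 30.7 and 36.2 FPKM in PM2.5 libraries 1 to 3 and 57.8, 61.3 and 53.5 FPKM in controls 1 to 3. Il18, Il15 and Il34 made up 71.1% of that sum. Without Il18 the sum was 20.3, 19.9 and 22.3 FPKM in PM2.5 and 28.3, 24.7 and 34.4 FPKM in controls, so the groups were still apart. The median log2 fold change of the 11 tested ligands was -0.58, beside 0.00 over all tested genes. Leaving out PM2.5 library 1 gave -1.05, and leaving out PM2.5 library 3 gave -0.27. The 35 receptor chains summed to 197, 198 and 184 FPKM in PM2.5 and 156, 270 and 201 FPKM in controls, and these groups overlapped. The median of the 21 tested receptor chains was 0.18, with 12 log2 fold changes positive and 9 negative. This median was 0.12 when PM2.5 library 2 was left out, 0.10 when PM2.5 library 3 was and 0.07 when control 1 was. Ligands and receptors are not independent samples, and no test was made between their medians. In whole tissue, fewer cells of a type and less RNA per cell cannot be told apart.

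**Figure D3:**
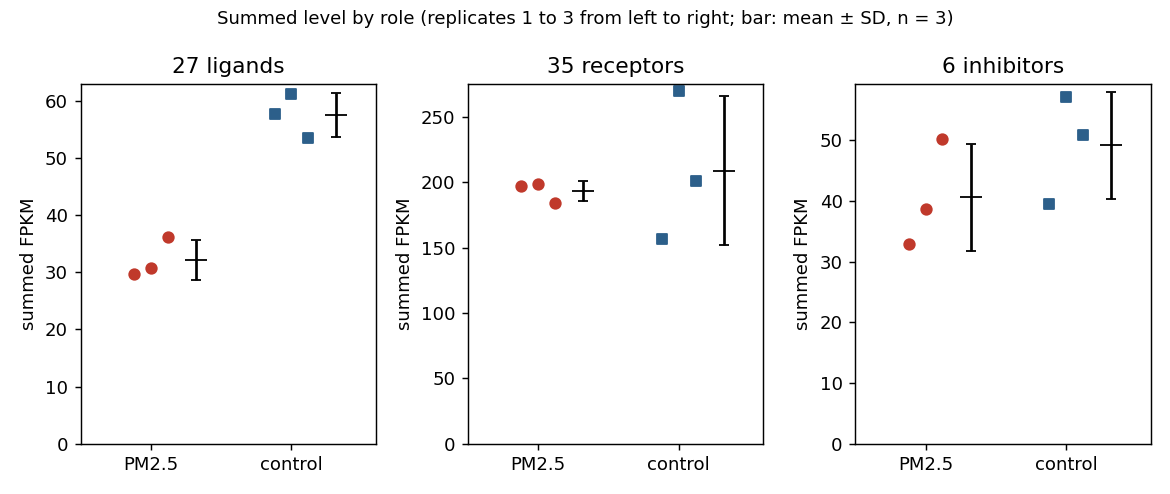
Summed deposited FPKM of the 27 ligands, 35 receptor chains and 6 inhibitors in each library, 1 point per library, PM2.5 left of control, with the mean and SD (n = 3) as bars. The ligand sums of PM2.5 (29.8 to 36.2) all lie below those of the controls (53.5 to 61.3), while receptor and inhibitor sums overlap.

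The summed pan-leukocyte markers were also lower in every PM2.5 library, although 0 of the 6 passed edgeR's quasi-likelihood test. All 6 had counts, and their summed level was 54.7 to 71.5 CPM in PM2.5 and 96 to 106 CPM in controls. Ptprc, the leukocyte antigen CD45, had 10.4, 6.66 and 7.71 CPM in PM2.5 and 13.9, 12.2 and 14.6 CPM in controls, and Cd53, Coro1a and Lcp1 were also lower in every PM2.5 library. Laptm5 had 19.9, 18.8 and 22.2 CPM in PM2.5 and 16.7, 21.3 and 20.9 CPM in controls, so its groups overlapped. Cd52 was at 0 in all 3 controls and had at most 0.564 CPM in PM2.5. The T and NK cell list, with 11 of 12 genes in the table, summed to 15.2 to 19.1 CPM in PM2.5 and 14.5 to 23.1 CPM in controls, and the macrophage list to 176 to 314 CPM in PM2.5 and 196 to 228 CPM in controls. The B and plasma cell list summed to 17.9 to 31.3 CPM in PM2.5 and 16.9 to 24.2 CPM in controls, with Cd79b, Ms4a1 and Pax5 at 0 in some libraries. The neutrophil list, with 6 of 7 genes in the table and S100a8, Mpo and Camp at 0 in some libraries, summed to 3.48 to 6.73 CPM in PM2.5 and 2.46 to 2.53 CPM in controls. The part of leukocyte content in the Il18, Il16 and Il2rb values was not tested.

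Among the receptor chains, the chains of the IL-23 receptor were higher in every PM2.5 library. Il23r, its private chain, had 17.5, 18.3 and 10.2 CPM in PM2.5 libraries 1 to 3 and 1.61, 4.24 and 4.22 CPM in controls 1 to 3. The lowest PM2.5 library had more than the highest control. Its log2 fold change was 2.19 ± 0.46 (edgeR's quasi-likelihood adjusted p = 0.0792, DESeq2 adjusted p = 0.000134), and with 1 library left out it lay between 1.86 and 2.41. Il12rb1, the chain that the receptors for IL-12 and IL-23 share, had 8.05, 5.85 and 4.01 CPM in PM2.5 and 2.11, 1.47 and 1.45 CPM in controls. These groups did not overlap either, and the log2 fold change was 1.83 ± 0.40 (edgeR's quasi-likelihood adjusted p = 0.0865, DESeq2 adjusted p = 0.000704).

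Il12rb2, which completes the receptor for IL-12, lies beside Il23r on chromosome 4 and was under the level minimum, with 64, 57 and 75 counts in PM2.5 and 29, 83 and 64 counts in controls. The ratio of Il23r to Il12rb2 in FPKM was 24.1, 32.4 and 11.3 in PM2.5 and 4.50, 4.35 and 5.42 in controls. The difference was 2.12 on the log2 scale, with an SD of 0.79 in PM2.5 and 0.17 in controls, and the exact two-sided permutation p was 0.1, the smallest that 3 against 3 libraries allow. It was 1 of 5 ratios computed, all chosen with their values known, and the exact permutation p adjusted over the 5 was 0.25. Of the marker lists, 3 had sums that lay higher in every PM2.5 library, those of neutrophils (above), adipocytes and erythroid cells. The adipocyte list summed to 65, 86.7 and 42.1 CPM in PM2.5 and 20.3, 32 and 19.7 CPM in controls, and the erythroid list to 2740 to 4270 CPM in PM2.5 and 785 to 1040 CPM in controls. Of 5 erythroid genes tested, 3 passed edgeR's quasi-likelihood test, all higher in PM2.5. These were Hba-a1, Hbb and Alas2 (adjusted p = 0.0434, 0.0434 and 0.0463 in that test). Of the neutrophil and adipocyte genes 0 passed it. In each list some genes did not follow the sum, and their groups overlapped. These were S100a9, Cxcr2, Mpo and Camp for neutrophils, Plin1, Cidec and Lep for adipocytes, and Hba-a3 and Ahsp for erythroid cells. The other genes of these lists were higher in every PM2.5 library. The part of neutrophils, adipocytes and erythroid cells in the Il23r and Il12rb1 values was not tested.

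**Figure D4:**
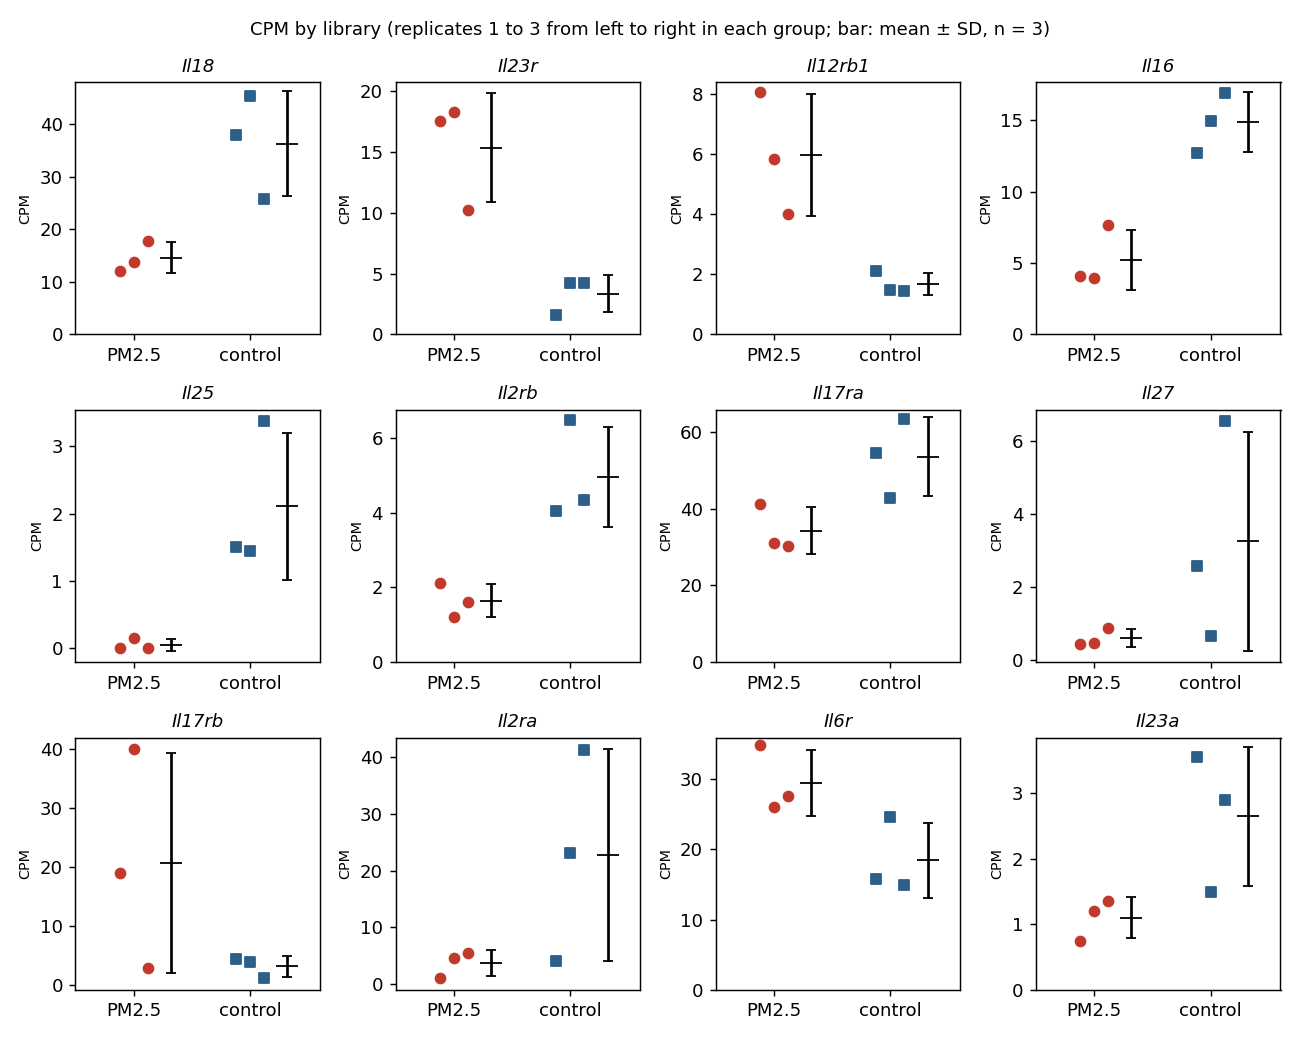
CPM in each library for the 12 members with the smallest unadjusted p, replicates 1 to 3 from left to right within PM2.5 (circles) and control (squares), with mean ± SD (n = 3) beside them, on axes that start at or just under 0. Il18, Il16, Il25, Il2rb, Il17ra and Il23a are lower and Il23r, Il12rb1 and Il6r higher in every PM2.5 library, while Il27, Il17rb and Il2ra overlap.

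Of the IL-2 receptor, 2 chains were tested, and Il2rb alone was apart between the groups. The shared gamma chain was not analysed here. Il2rb, the signalling chain that IL-2 and IL-15 share, had 2.12, 1.22 and 1.61 CPM in PM2.5 libraries 1 to 3 and 4.06, 6.49 and 4.34 CPM in controls 1 to 3. No PM2.5 library reached a control. The log2 fold change was -1.59 ± 0.39 (edgeR's quasi-likelihood adjusted p = 0.109, DESeq2 adjusted p = 0.00493). Il2ra, the high-affinity chain CD25, had 1.03, 4.61 and 5.50 CPM in PM2.5 and 4.02, 23.1 and 41.4 CPM in controls. Control 1 lay within the PM2.5 range, and controls 2 and 3 were far above it. The log2 fold change was -2.62 ± 0.92 (edgeR's quasi-likelihood adjusted p = 0.181, DESeq2 adjusted p = 0.0179). The ratio of Il2ra to Il2rb in FPKM ranged from 0.409 to 3.18 in PM2.5 and from 0.829 to 8.02 in controls. Il7r, the chain for IL-7 on lymphocytes, had a log2 fold change of -0.78 ± 0.52, and Il15ra, which presents IL-15 to neighbouring cells, -0.30 ± 0.54.

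Il4r had 116, 102 and 114 CPM in PM2.5 libraries 1 to 3 and 98.7, 433 and 211 CPM in controls 1 to 3. The PM2.5 libraries were close together, while control 2 stood far above and control 1 below them. The log2 fold change was -1.16 ± 0.48 (edgeR's quasi-likelihood adjusted p = 0.234), and -0.48 without control 2. Il3ra was almost equal in the groups, at -0.02 ± 0.18.

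The 4 tested receptor chains of the IL-17 family did not share a direction. Il17rb, which binds IL-25 and IL-17B, had 19.0, 40.0 and 2.84 CPM in PM2.5 libraries 1 to 3 and 4.48, 3.81 and 1.15 CPM in controls 1 to 3. PM2.5 libraries 1 and 2 were high, and PM2.5 library 3 lay among the controls. The log2 fold change was 2.71 ± 0.94 (edgeR's quasi-likelihood adjusted p = 0.178, DESeq2 adjusted p = 0.0141), and 1.80 without PM2.5 library 2. Il17ra, the chain that most IL-17 receptors share, had 41.3, 31.0 and 30.3 CPM in PM2.5 and 54.4, 42.8 and 63.5 CPM in controls. All PM2.5 libraries lay below the lowest control, by little in PM2.5 library 1. Its log2 fold change was -0.65 ± 0.21 and edgeR's quasi-likelihood adjusted p 0.157. Il17re, the chain for IL-17C on epithelium, had 18.5, 13.8 and 8.24 CPM in PM2.5 and 8.99, 10.7 and 8.08 CPM in controls. Il17rc, which joins Il17ra to bind IL-17A and IL-17F, had a log2 fold change of 0.34 ± 0.30, and neither Il17re nor Il17rc was apart between the groups.

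The summed epithelial markers were highest in the same libraries, although 0 of them passed edgeR's quasi-likelihood test. Of 10 genes listed for surface and oviduct epithelium, 6 were in the table, all 6 had counts in every library, and their sum was 385, 462 and 49.4 CPM in PM2.5 libraries 1 to 3 and 46.2, 95.7 and 21.5 CPM in controls 1 to 3. Epcam, an epithelial adhesion molecule, had 98.9, 75.4 and 9.06 CPM in PM2.5 and 7.34, 15.9 and 2.42 CPM in controls. PM2.5 libraries 1 and 2 were again the 2 highest, as they were for the keratins Krt7, Krt8 and Krt18. The other 2 markers did not follow them, since Upk3b had 3.26, 0.626 and 1.27 CPM in PM2.5 and 0.418, 3.62 and 0.343 CPM in controls. Msln had 19.8, 4.17 and 4.37 CPM in PM2.5 and 4.50, 3.68 and 4.26 CPM in controls. The part of epithelial content in the Il17rb and Il17re values was not tested.

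**Figure D5:**
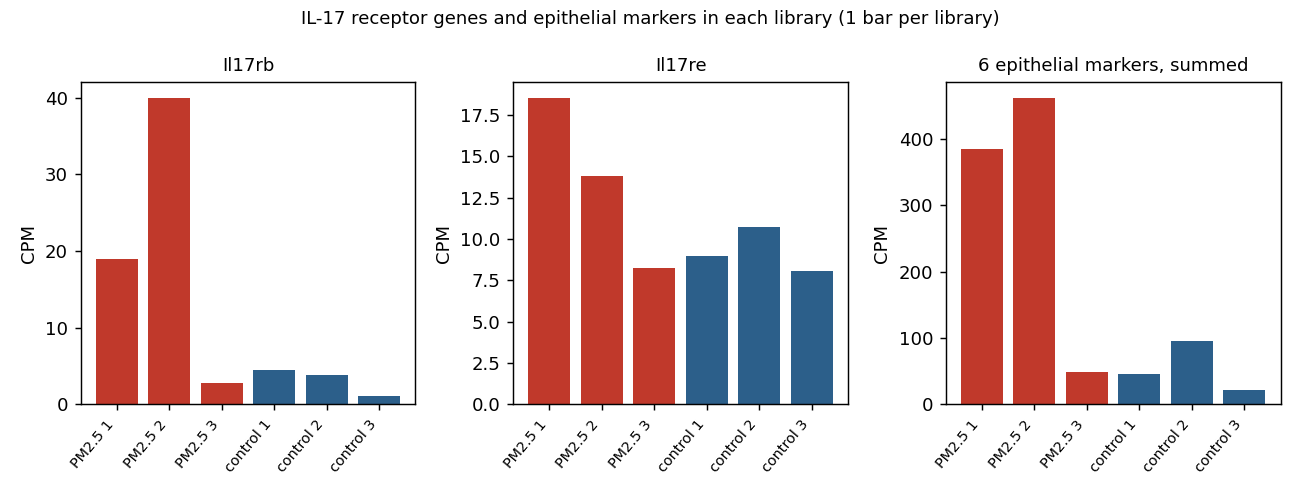
CPM of Il17rb, of Il17re and of 6 summed epithelial markers in each of the 6 libraries, 1 bar per library, PM2.5 left of control. In all 3 panels PM2.5 libraries 1 and 2 have the tallest bars, with 19.0 and 40.0 CPM for Il17rb and 385 and 462 CPM for the markers.

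In the IL-6 family, Il6r, the private chain for IL-6, had 34.9, 26.0 and 27.6 CPM in PM2.5 libraries 1 to 3 and 15.7, 24.6 and 14.9 CPM in controls 1 to 3. The groups were apart, with control 2 close to the lowest PM2.5 library. Its log2 fold change was 0.68 ± 0.25 (edgeR's quasi-likelihood adjusted p = 0.197). Il6st had 277, 224 and 244 CPM in PM2.5 and 86.3, 298 and 181 CPM in controls, a log2 fold change of 0.40 ± 0.41 with groups that overlapped. The ratio of Il6r to Il6st in FPKM was 0.203 to 0.227 in PM2.5 and 0.149 to 0.329 in controls. Il11ra1 had a log2 fold change of 0.19 ± 0.16.

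In 5 further receptor chains the groups overlapped. Il1r1, the signalling receptor for IL-1, had a log2 fold change of -0.09 ± 0.44 and its partner Il1rap 0.44 ± 0.40. Il10ra, the chain for IL-10, had -0.33 ± 0.54, Il20ra, a chain for IL-20 family ligands, 0.75 ± 0.86 and Il27ra, the chain for IL-27, 0.15 ± 0.51. None of these 5 had an adjusted p under 0.562 in edgeR's quasi-likelihood test. The name Il27ra stands on a second row, beside the tested one on the opposite strand and under the minimum. That row had 8, 7 and 24 counts in PM2.5 libraries 1 to 3 and 5, 0 and 0 counts in controls 1 to 3. In CPM it was higher in every PM2.5 library, by little in PM2.5 library 2.

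Among the inhibitors, Il1rn, the antagonist that blocks the IL-1 receptor, had 5.34, 22.5 and 33.9 CPM in PM2.5 libraries 1 to 3 and 34.5, 65.0 and 70.7 CPM in controls 1 to 3. The groups did not overlap, but PM2.5 library 3 came within 1 CPM of control 1. The log2 fold change was -1.47 ± 0.62 (edgeR's quasi-likelihood adjusted p = 0.242, DESeq2 adjusted p = 0.0935), -2.03 with PM2.5 library 3 left out and -1.01 with PM2.5 library 1 left out. The ratio of Il1rn to Il1b in FPKM was 1.01, 18.1 and 25.9 in PM2.5 and 8.89, 14.1 and 22.5 in controls. PM2.5 library 1 stood far below the other libraries, and the groups overlapped (exact permutation p = 0.9).

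Il18bp, which binds and neutralises IL-18, had 28.5, 22.8 and 16.5 CPM in PM2.5 and 22.6, 13.0 and 23.3 CPM in controls, with a log2 fold change of 0.20 ± 0.31. The ratio of Il18 to Il18bp in FPKM was 0.427, 0.609 and 1.08 in PM2.5 and 1.68, 3.50 and 1.10 in controls. The groups were apart by a narrow margin between PM2.5 library 3 and control 3. The difference was -1.51 on the log2 scale with an SD of 0.68 in PM2.5 and 0.84 in controls (exact permutation p = 0.1, the smallest possible, and 0.25 adjusted over the 5 ratios). Il13ra2, the decoy receptor for IL-13, had a log2 fold change of 0.59 ± 0.61, and 0.02 without PM2.5 library 3.

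The receptor chain Il13ra1, which joins Il4r to bind IL-4 and IL-13, appears in 2 rows. The row named Il13ra1 spans 3751 bases on chromosome 11, from 71254928 to 71258678, and the row named Il13ra1-ps1 spans 59822 bases on the X chromosome, from 115348860 to 115408681. In the mouse the gene Il13ra1 lies on the X chromosome. The rows had 39.8 ± 4.50 CPM in PM2.5 and 35.1 ± 5.49 CPM in controls for Il13ra1, and 53.8 ± 8.94 CPM in PM2.5 and 38.7 ± 6.98 CPM in controls for Il13ra1-ps1. Reads of similar copies can be split by the counting, so both rows are uncertain. Whether the names of the 2 rows are exchanged was not tested. All 3751 bases of the row named Il13ra1 overlap Atp13a4, a gene on the opposite strand. The receptor counts and median above use the row named Il13ra1 and leave out Il13ra1-ps1. That median of 0.18 is the log2 fold change of the uncertain Il13ra1 row itself. Il13ra1-ps1 was higher in every PM2.5 library, with a log2 fold change of 0.48 ± 0.20 and an adjusted p of 0.239 by edgeR's quasi-likelihood test, and Il13ra1 had 0.18 ± 0.18.

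By position, 32 of the 70 members lay within 200 kb of another member, in 12 clusters. The largest held 6 receptor genes of the IL-1 family on chromosome 9, from Il1r2 at 42384433 to Il18rap at 42800959, of which Il1r1 alone was tested. Members of a cluster could differ. Il2ra and Il15ra lay together on chromosome 17, with log2 fold changes of -2.62 and -0.30. Il17re and Il17rc lay together on chromosome 4, with 0.55 and 0.34. Of the other genes that lead the comparison, these stood alone, with Il16 on chromosome 1 from 137617944 to 137718130, Il25 on chromosome 15 from 28408842 to 28411893, Il2rb on chromosome 7 from 110033341 to 110048054 and Il12rb1 on chromosome 16 from 18620770 to 18632769. Of the 36 tested members 4 overlapped another gene of the table, which were Il18, Il13ra1, Il11ra1 and Il27.

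The 34 members under the minimum were 16 ligands, 14 receptor chains, 3 inhibitors and Il4i1, an amino acid oxidase that IL-4 induces. Of these, 12 had a count in all 6 libraries, 9 had counts in a single library and 17 had fewer than 20 counts in each library. The most counted was Il21r, the receptor for IL-21, with 101, 68 and 47 counts in PM2.5 libraries 1 to 3 and 122, 112 and 69 counts in controls 1 to 3. Il18rap, a chain of the IL-18 receptor, had 75, 65 and 72 counts in PM2.5 and 104, 30 and 91 in controls, so its groups overlapped. The other chain, Il18r1, had 49, 37 and 25 counts in PM2.5 and 74, 52 and 60 in controls. In CPM Il18r1 was lower in every PM2.5 library, by little in PM2.5 library 1. Il17rd, which is known to restrain fibroblast growth factor signals, had 136, 142 and 26 counts in PM2.5 and 19, 64 and 38 in controls. PM2.5 libraries 1 and 2 were the high ones here too. Il4i1 had 55, 44 and 46 counts in PM2.5 and 85, 68 and 69 in controls, and it overlaps 3 other genes of the table.

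Counts stood in controls alone for 5 members and in PM2.5 alone for 6, and the share of all genes with such counts is not given here. Il24, an IL-10 family ligand, had 0 counts in PM2.5 and 25, 0 and 12 counts in controls. Il1a, the other classical IL-1 ligand, had 17 counts in control 2 and 0 elsewhere. Il31, a cytokine of itch, had 0 counts in PM2.5 and 4, 8 and 1 in controls. Il17c had 4 counts in control 2 and Il36b 4 counts in control 1, with 0 elsewhere. Il19, an IL-10 family ligand, had 12 counts in PM2.5 library 2 and 0 elsewhere. Il5ra had 8 counts in that library alone. Il5, Il1f10, Il2 and Il22 had 6, 8, 4 and 3 counts in PM2.5 library 1 alone. A count of 0 allows up to 3 counts in a library, which is 0.0494 to 0.0604 CPM in PM2.5 and 0.0587 to 0.0627 CPM in controls and covers counting error only. When all genes with a count were tested, none of the 34 passed edgeR's quasi-likelihood test (0.0356% of all genes did), and 3 had an unadjusted p below 0.05, namely Il24, Il31 and Il7, a survival factor for lymphocytes with 33, 23 and 37 counts in PM2.5 and 38, 149 and 84 in controls. In that fit 16% of all genes had an unadjusted p below 0.05.

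Genes that process interleukins or carry their signals were counted in the same way. Of 56 such genes in 5 lists, 52 were tested, and 0 passed edgeR's quasi-likelihood test (0.928% of all genes did), with 13 at an unadjusted p below 0.05, or 25% beside 20.9% of all genes. DESeq2 called 6, which is 11.5% and equals its share of all genes, 11.5%. Their median log2 fold change was -0.21, with 34 values negative and 18 positive. Over all tested genes 7594 values were negative and 7709 positive. The groups did not overlap in 12 of the 52, or 23.1%, beside 27.2% of all tested genes. All 8 SOCS feedback inhibitors were tested, 6 of them with a negative log2 fold change, and the median was -0.40. Socs1, a target and inhibitor of JAK signalling, had 4.41, 2.80 and 3.06 CPM in PM2.5 and 5.98, 19.9 and 10.2 CPM in controls. Cish, an inhibitor that STAT5 induces, had 26.8, 16.9 and 25.3 CPM in PM2.5 and 31.7, 75.6 and 170 CPM in controls. In both genes every PM2.5 library lay below every control, with log2 fold changes of -1.81 ± 0.49 and -2.01 ± 0.57 (edgeR's quasi-likelihood adjusted p = 0.122 and 0.133, DESeq2 adjusted p = 0.00729 and 0.00495). Socs5, a further member, had -0.70 ± 0.27.

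Of 9 tested JAK and STAT genes, 6 had a negative log2 fold change and the median was -0.20. Tyk2, the kinase of the IL-12 and IL-23 receptors, had 42.3, 36.1 and 36.5 CPM in PM2.5 and 64.6, 45.3 and 82.5 CPM in controls (log2 fold change -0.74 ± 0.23). Jak1, the kinase of the common gamma chain and gp130 receptors, had 330, 311 and 406 CPM in PM2.5 and 222, 294 and 208 CPM in controls (0.53 ± 0.19), and Jak2, a partner kinase, had -0.84 ± 0.54, which was 0.13 without control 2. Of 11 tested adaptors and kinases of the IL-1 receptor, 6 had a negative log2 fold change and the median was -0.11. Irak4, the kinase that starts that pathway, had -0.84 ± 0.29, Map3k7, the kinase TAK1, 0.44 ± 0.15 and Tab3, a partner of TAK1, 0.88 ± 0.33. The adjusted p in edgeR's quasi-likelihood test was at least 0.148 in these lists.

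Of 16 tested cytokines and receptors of related families under other names, 11 had a negative log2 fold change and the median was -0.25. Lif, which signals through gp130, had 0.324, 0.758 and 1.39 CPM in PM2.5 and 2.53, 9.11 and 4.22 CPM in controls. No PM2.5 library reached a control, and the log2 fold change was -2.68 ± 0.71 (edgeR's quasi-likelihood adjusted p = 0.121, DESeq2 adjusted p = 0.00527). Csf1, the macrophage growth factor, had -0.73 ± 0.26, and Csf3, the granulocyte growth factor, had 4.37, 3.97 and 0 CPM in PM2.5 and 0.188, 0 and 0.0606 CPM in controls. Of 8 interleukin processing genes, 5 had a negative log2 fold change and the median was -0.30. Adam17, the protease that sheds the IL-6 receptor, had 122, 162 and 199 CPM in PM2.5 and 103, 99.2 and 72.4 CPM in controls (0.81 ± 0.23, edgeR's quasi-likelihood adjusted p = 0.132, DESeq2 adjusted p = 0.0214). Casp8, which can cleave the IL-1b precursor, had -0.64 ± 0.22, and Pycard, the inflammasome adaptor, -0.72 ± 0.44.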

How the data were processed

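The table holds counts and FPKM for each library, per the file headers. The deposited counts are whole numbers, and the deposited FPKM values are the authors' scaling per kilobase and library. Per the submitters' processing notes, the tools were StringTie 2.1.6, HISAT2 2.2.1, cutadapt 1.9, edgeR and DESeq2, with no roles named. Poly(A) RNA was sequenced from libraries that mark strand, per the labels' protocols. Genome build, annotation and the strand option used in counting are not stated. Counts from 1 to 20 of the members were multiples of 4 in 23 of 53 cases, for no stated reason.

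The main test was edgeR 4.0.16 (R 4.3.3; TMM, glmQLFit, glmQLFTest) on counts of the 15303 genes averaging 0.5 FPKM or more, with two-sided Benjamini-Hochberg adjustment over all of them at 0.05. The SE is the log2 fold change divided by the square root of F. Alternatives used limma 3.58.1 and DESeq2 1.42.0, other filters and scalings, a replicate block and each library left out. The code was tested on simulated data, with changed genes of at least 1 FPKM and 50 genes at each fold change. The main test recovered 8% of genes changed 2-fold, 70% at 4-fold and 92% at 8-fold, and 10 of its 143 calls were false. A count of 0 members called thus does not show that none changed. Within groups, pairs of libraries differed by a chi-square of 135 or more per degree of freedom, so none is a repeat count of the same library. This value measures against counting error, so it cannot tell separate animals from separate samples of the same animal.

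Members and lists were chosen with earlier results of these data known. Values per library are given for the 12 members with the smallest p, the 3 family marks and the most abundant of each role; of those under the minimum, the most counted and those with counts in 1 group; of other lists, up to 3 with the smallest p; other genes were chosen after their values were seen. Sequences were not used here, since the reference at hand is of the mouse.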

Additional observations from a re-analysis of the deposited data

How the results depend on the processing

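The number of genes changed was 142, and it was 1767 with DESeq2, 87 with edgeR's own filter, 8 without a filter and 1 with the replicate block, and from 0 to 7 when single libraries were dropped; the cause was not tested. Members called numbered 0, and 9 with DESeq2 and 1 with limma at either pseudocount (1 or 0.1). Pathway genes called numbered 0, and 6 with DESeq2. The ligand median of -0.58 was -0.81 in limma on log2(FPKM + 0.1), -0.92 with a minimum of 1 FPKM, where fewer genes entered, and -0.91 with the replicate block, and -1.05 to -0.27 when single libraries were dropped. The receptor median of 0.18 lay between 0.07 and 0.26 in all settings run. It stayed within the spread between libraries, but that spread (SD 0.179) is about as large as the median, so this is a loose limit. Of 532 values for 36 members, 11 gained a call and 25 uncalled values changed sign. With 0 members called in the main fit, no call could be lost or turn direction. The labels do not say that same-numbered libraries are paired, and their deviations correlated at -0.177, 0.162 and 0.0932; with the replicate block 11 of 36 members had an unadjusted p below 0.05. Depth limits the members under the minimum, many with single-digit counts.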
